A study of Mus musculus with 2 samples.

Results

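The chemokines described here are 10 secreted ligands of the CCL and CXCL families, Ccl2, Ccl7, Ccl11, Ccl6, Ccl9, Cxcl1, Cxcl2, Cxcl5, Cxcl10 and Cxcl14, among the 21905 genes of a single-cell RNA study of mouse bone. They were chosen by name, as chemokines of stromal cells, with earlier results of these data known. All 10 had molecules in both libraries. Bone resident cells of femurs and tibias came from 12-week-old female mice 96 h after vehicle (Veh) or 10 mg/kg doxorubicin (Doxo), an anthracycline that damages DNA. No strain, transgene or deletion was named for the mice behind these libraries. The bones were digested with collagenase, and cells with CD45, CD71 or Ter119 on their surface were depleted. The sample labels also name CD31 among the sort markers, which the authors' description of this sort does not. Each condition gave 1 library, and the number of mice behind it is not given in the sources used here, so condition and library cannot be told apart and no test between conditions was made. Intervals are at 95% and hold the error of counting molecules alone, without the spread between cells or mice.

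Each library held 2488 cells, with 24859695 unique molecular identifiers (UMIs, the counted RNA molecules) in Veh and 20792012 in Doxo, and with medians of 8693 and 7348 UMIs a cell. Only 4 cell barcodes occurred in both libraries. Clusters made without any chemokine gene were named from marker genes, which include the chemokine Cxcl12. Cxcl12-abundant reticular (CAR) cells, the marrow stroma that gives rise to adipocytes and osteoblasts, carried 8 of 8 of their markers and gave 370 Veh and 429 Doxo CAR-like cells. There were 1085 and 1343 bone and cartilage fibroblast-like cells, 438 and 262 arteriolar and endosteal fibroblast-like cells, 214 and 128 osteoblast-like cells, 236 and 202 chondrocyte-like cells, and 102 and 69 endothelial-like cells. The endothelial-like cells were present although the labels name CD31 among the sort markers. A further cluster of 43 and 55 cells was led by Clic5 and Rab37 and is called by these genes. A UMI of Ptprc, the gene of CD45, was present in 19 Veh and 14 Doxo cells.

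Chemokines are small secreted proteins that bind G protein-coupled receptors and draw leukocytes along a gradient. CCL and CXCL ligands are told apart by the spacing of their first cysteines. Ccl2 and Ccl7 bind Ccr2 and draw monocytes out of the marrow, Ccl11 (eotaxin) draws eosinophils through Ccr3, and Ccl6 and Ccl9 act on Ccr1. Cxcl1, Cxcl2 and Cxcl5 draw neutrophils through Cxcr2. Cxcl10 is induced by interferon and draws T cells through Cxcr3. Cxcl14 is made by resting epithelium and stroma. Transcription of many inflammatory chemokines is switched on by NF-κB. In the GENCODE M21 annotation of GRCm38, Ccl2 (chr11:82035571-82037453), Ccl7 (chr11:82045712-82047525) and Ccl11 (chr11:82057823-82062955) lie on the plus strand within 27.4 kb. Ccl6 (chr11:83587882-83593087) and Ccl9 (chr11:83572919-83578636) lie on the minus strand within 20.2 kb. Cxcl5 (chr5:90759360-90761624), Cxcl1 (chr5:90891241-90893115) and Cxcl2 (chr5:90903871-90905938) lie on the plus strand within 146.6 kb. Cxcl10 (chr5:92346638-92348889) and Cxcl14 (chr13:56288643-56296551) lie apart from these groups, on the minus strand.

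Promoter windows of 6 members (Ccl6, Ccl9, Cxcl1, Cxcl2, Cxcl10 and Cxcl14) were matched in RefSeq on GRCm38.p6. Stretches of 4 are shown to set side by side the shared κB letters of the neighbours Cxcl1 and Cxcl2 and the response element letters of Cxcl10 and Cxcl14. Capitals mark a κB motif or the core of the interferon-stimulated response element (GAAA, any 2 bases, GAAA), and each stretch reads 5′ to 3′ on the strand of the gene.
Cxcl1, chr5:90891125-90891205, plus strand: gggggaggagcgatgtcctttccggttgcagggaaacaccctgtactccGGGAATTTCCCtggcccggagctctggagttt
Cxcl2, chr5:90903779-90903859, plus strand: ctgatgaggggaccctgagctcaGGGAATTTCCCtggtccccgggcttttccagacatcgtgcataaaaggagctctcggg
Cxcl10, chr5:92348969-92349109, minus strand: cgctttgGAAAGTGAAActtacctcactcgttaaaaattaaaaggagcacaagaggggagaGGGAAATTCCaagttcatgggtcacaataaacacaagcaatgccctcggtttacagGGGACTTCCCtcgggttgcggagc
Cxcl14, chr13:56296651-56296731, minus strand: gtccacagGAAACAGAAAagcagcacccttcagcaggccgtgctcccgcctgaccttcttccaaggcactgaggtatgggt
Cxcl1 and Cxcl2 held the same run of capitals, in which the motif was read on both strands at overlapping positions. Cxcl10 held 2 κB matches and 1 response element, and Cxcl14 held the response element letters with no κB match. On either strand, the κB motif occurred in 4 of the 6 member windows (Ccl9, Cxcl1, Cxcl2 and Cxcl10) and in 4.51% of 32851 promoter windows of the same length. The response element core occurred in Cxcl10 and Cxcl14 and in 3.44% of all windows. The AP-1 letters TGANTCA were found in Ccl9 and Cxcl10 and in 7.81% of all windows, and the letters TATAAA in Ccl9 and in 13.6%. These are matches of letters, not measured binding.

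The CAR-like cells held the highest level of 7 of the 10 members in Veh and of 5 in Doxo, where the level is the summed UMIs of a class per 1000000 UMIs of that class (CPM). In Veh these were Ccl2, Ccl7, Ccl6, Ccl9, Cxcl5, Cxcl10 and Cxcl14, though for Ccl6 the interval overlapped that of the next class, as it did for Ccl9 in Doxo. In Doxo the arteriolar and endosteal fibroblast-like cells came first for Ccl2 and Ccl7. These fibroblast-like cells came first for Ccl11 and Cxcl1 in both libraries. Cxcl2 was highest in endothelial-like cells in Veh, with an interval that overlapped the CAR-like one, and in the cells led by Clic5 and Rab37 in Doxo. Of all Veh UMIs in the 7 classes, CAR-like cells held 67.9% for Ccl2, 72.1% for Cxcl10 and 73.7% for Cxcl14. For Cxcl1 they held 19.2%, while the 2 fibroblast-like classes held 35.3% (bone and cartilage) and 35.96% (arteriolar and endosteal). In Doxo the CAR-like share was 34.5% for Ccl2, 5.72% for Cxcl1 and 88.8% for Cxcl14. Levels of single genes are compared here between classes only, since 3′ UMIs of different genes need not be counted with equal efficiency.

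**Figure D1:**
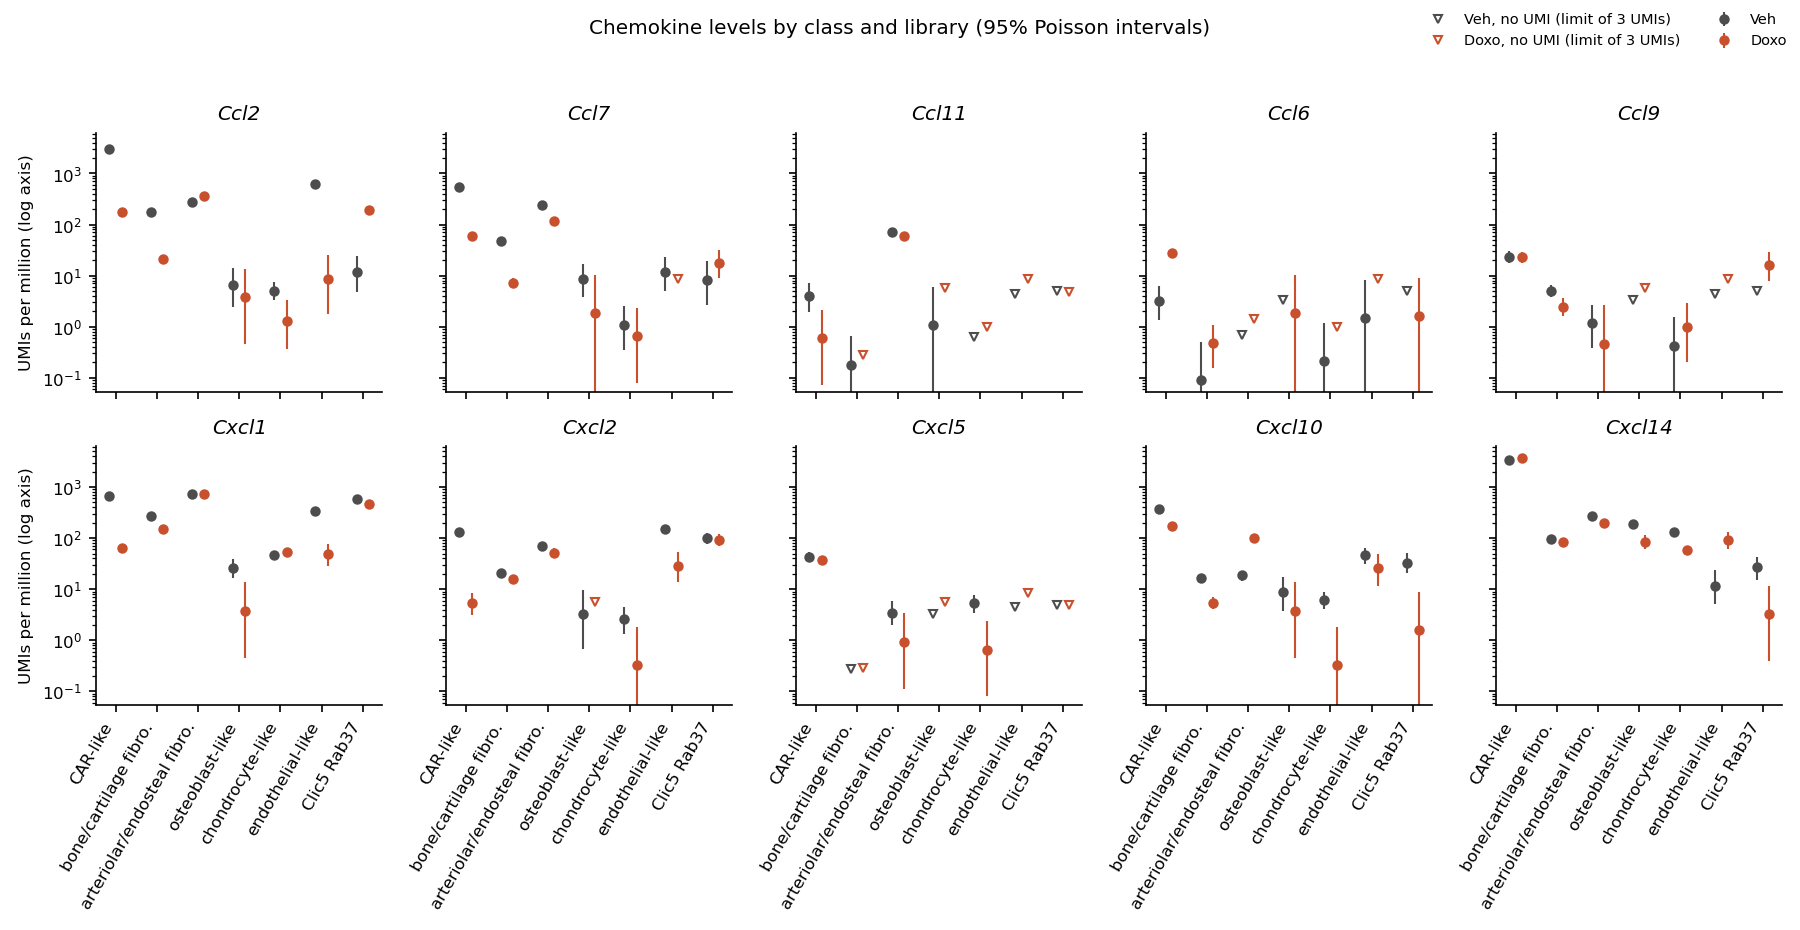
Level of each chemokine (CPM, log axis) in each of the 7 classes, Veh in grey and Doxo in orange, with 95% Poisson intervals. Open triangles stand at the level of 3 UMIs where a class had none. Cxcl14 stood at 3398 and 3728 CPM in CAR-like cells, while Ccl2 stood at 3010.5 and 178 CPM.

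In CAR-like cells, 6 of the 10 members were at least 2-fold lower in Doxo and 1 was at least 2-fold higher, among members with at least 10 UMIs in both libraries together. Of the 12830 genes that met this minimum, 4.55% were as much lower and 5.23% as much higher. The median log2 ratio of Doxo to Veh was -1.79 over the members and 0.06 over all these genes. Since the members were chosen with earlier results of these data known, these shares and medians are a description. The 6 were the monocyte attractants Ccl2 and Ccl7, the eotaxin Ccl11, the neutrophil attractants Cxcl1 and Cxcl2, and Cxcl10. Cxcl14, Ccl9 and Cxcl5 lay within 2-fold.

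Ccl2 had 7592 UMIs in Veh CAR-like cells (3010.5 CPM, interval 2943 to 3079) and 603 in Doxo (178 CPM, 164 to 193). Its log2 ratio was -4.08 (-4.20 to -3.96). A Ccl2 UMI was found in 35.9% of Veh cells (31.1% to 41.1%) and in 12.4% of Doxo cells (9.39% to 15.8%), or 28.6% and 6.94% with each cell thinned to 2000 UMIs, which left out 17 Veh and 11 Doxo cells. In osteoblast-like cells, the class with the lowest share in both libraries, it was 2.80% and 1.56% at medians of 3155 and 2969 UMIs a cell, against 6218 and 7324 in CAR-like cells. For Ccl7 there were 1373 UMIs (544 CPM) against 203 (59.9 CPM), which gave a log2 ratio of -3.18, and 27.8% and 8.16% of cells had one. Levels and shares of both genes were lower in Doxo, and the intervals of the libraries did not overlap.

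For Cxcl1, the Veh CAR-like cells held 1675 UMIs (664 CPM, 633 to 697) and those of Doxo 220 (64.9 CPM, 56.6 to 74.1), so that the log2 ratio was -3.35. Its share of cells was 23.2% (19.0% to 27.9%) and 11.7% (8.78% to 15.1%). Cxcl2, its neighbour on chromosome 5, had 331 and 18 UMIs, a log2 ratio of -4.59, in 5.68% and 0.466% of cells. A single Veh cell held 203 of the 331 Cxcl2 UMIs and a single Doxo cell 17 of the 18, and without both the ratio was -6.85. Cxcl5, which shares the receptor Cxcr2, counted 110 UMIs against 124, with a log2 ratio of -0.25 (-0.64 to 0.13), and was found in 10.3% and 11.9% of cells. The 3 genes of one chromosomal group and one receptor thus did not move alike in these libraries.

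The level of Cxcl10 in CAR-like cells was 365 CPM in Veh (921 UMIs) and 172 CPM in Doxo (584 UMIs), for a log2 ratio of -1.08 (-1.24 to -0.93), and 18.6% and 8.39% of cells had a UMI. That of Cxcl14 was 3398 CPM in Veh (3326 to 3470, from 8568 UMIs) and 3728 CPM in Doxo (3663 to 3793, from 12634 UMIs), for a log2 ratio of 0.13 (0.09 to 0.17). It was found in nearly every CAR-like cell, 96.2% in Veh and 98.1% in Doxo, and in 94.9% and 95.9% of thinned cells. Ccl9 had 59 and 77 UMIs, a log2 ratio of -0.05, in 11.1% and 11.4% of cells. Ccl11 had 10 UMIs in Veh and 2 in Doxo. For Ccl6 there were 8 Veh UMIs against 92, a log2 ratio of 3.02, but 1 Doxo cell held 86 of the 92, and without the cell with most UMIs in each library the ratio was 0.10 and no member was 2-fold higher. That cell also held the most Ccl9 UMIs of the Doxo library, 13, and carried 32 Adipoq and 214 Cxcl12 UMIs with no Ptprc UMI.

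**Figure D2:**
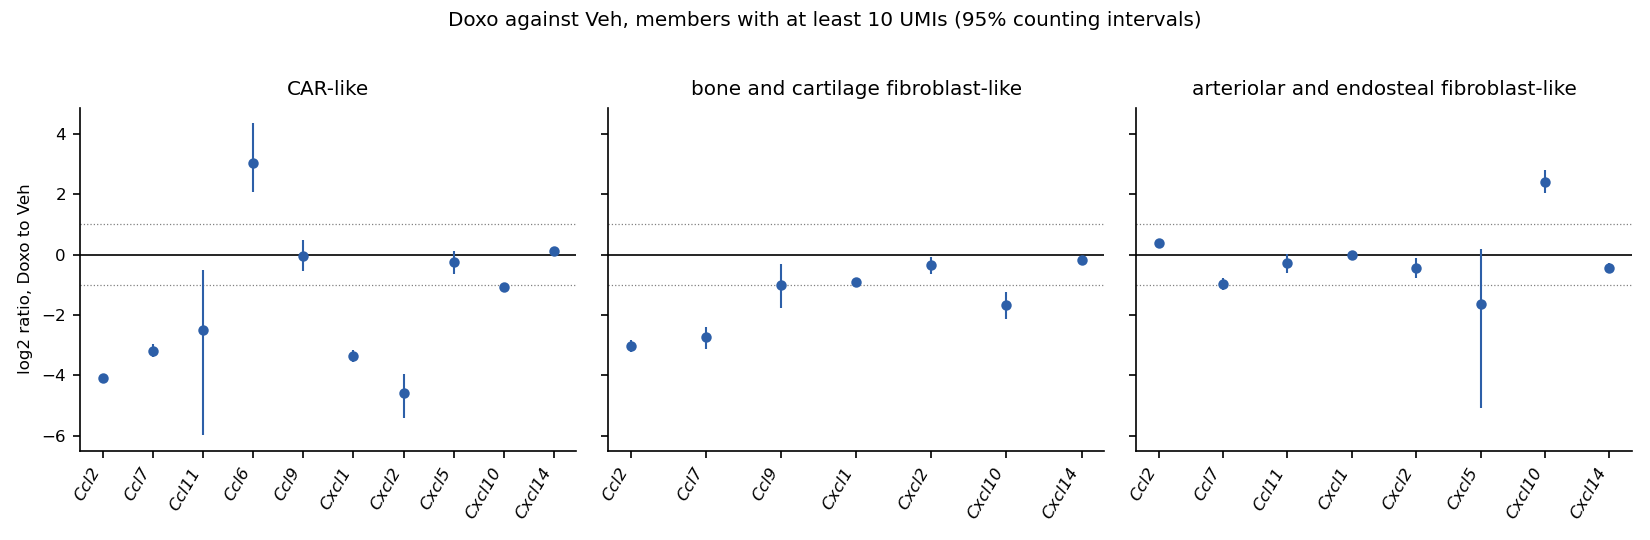
Log2 ratio of Doxo to Veh of each member with at least 10 UMIs in CAR-like cells (left) and the 2 fibroblast-like classes (middle, right), with 95% counting intervals and dotted lines at 2-fold. Ccl2 lies at -4.08 and -3.01 in the first 2 panels and at 0.38 in the third.

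The UMIs of the inflammatory members lay in few cells. In Veh CAR-like cells, 13 of the 133 cells with any Ccl2 UMI held 50% of its UMIs, and 6 of 86 cells did so for Cxcl1. For Cxcl10 these were 4 of 69 cells, and for Cxcl14 67 of 356. In Doxo, 5 of 53 cells held 50% of the Ccl2 UMIs and 97 of 421 held 50% of those of Cxcl14. The cells with these chemokines overlapped. Of the 133 Veh CAR-like cells with a Ccl2 UMI, 60.2% also had Ccl7, 45.9% had Cxcl1 and 32.3% had Cxcl10, against 9.70%, 10.5% and 10.97% of the 237 without Ccl2. For Ccl9 these shares were 8.27% and 12.7%, and for Cxcl5 9.77% and 10.5%. Cells with Ccl2 had a median of 8186 UMIs and those without 5188, and the part of depth in these shares was not tested. In Doxo the same was seen in fewer cells: of the 53 with Ccl2, 39.6% had Ccl7 and 34.0% had Cxcl1, against 3.72% and 8.51% of the other 376. Over the 370 Veh cells, Pearson's r of Ccl2 was 0.72 with Ccl7, 0.55 with Cxcl1 and 0.43 with Cxcl10, as a description of cells that share a library and differ in depth.

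**Figure D3:**
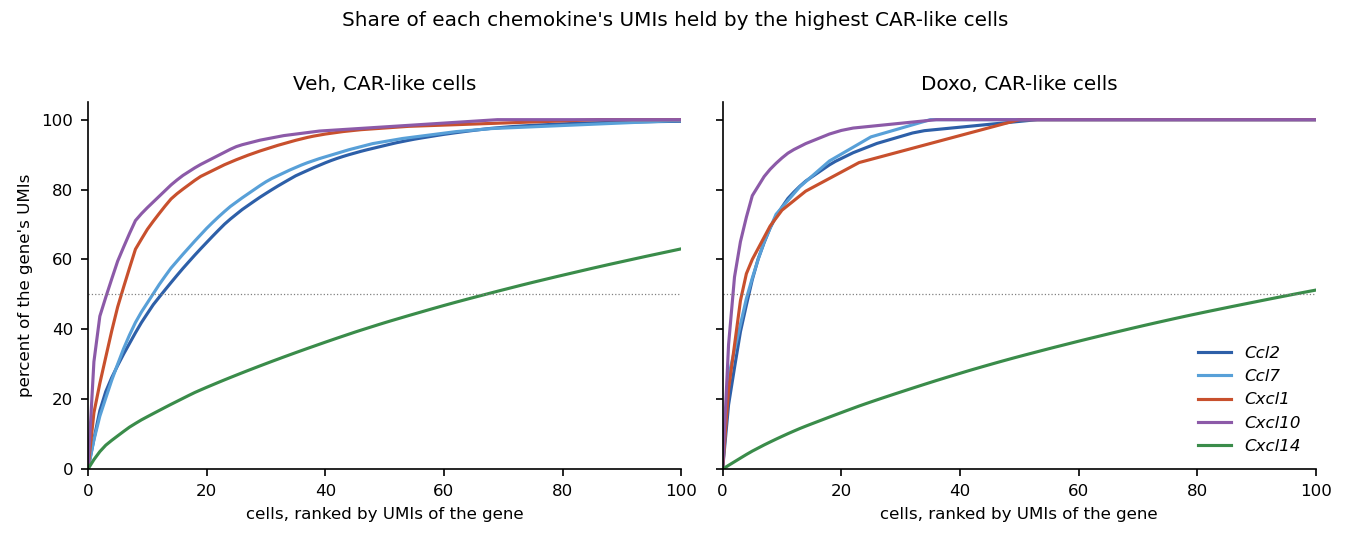
Cumulative percent of the UMIs of 5 chemokines in the CAR-like cells of Veh (left) and Doxo (right), with cells ranked by their UMIs of that gene. The curves of Ccl2, Ccl7, Cxcl1 and Cxcl10 pass 50% within 13 Veh cells, and that of Cxcl14 needs 67.

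Clustered alone, again without chemokine genes, the CAR-like cells gave 3 populations. The first and largest had 272 cells in Veh and 406 in Doxo, and the third had 11 and 17 and was led by genes that include Acan and Hapln1 of cartilage. Of population 2 there were 87 cells in Veh but 6 in Doxo, and it was led by Il6, Myc, Tnfrsf12a and Nr4a3, genes of cytokine and early responses. In Veh, population 2 held 91.5% of the Ccl2 UMIs of CAR-like cells, 95.7% of Ccl7, 84.8% of Cxcl1, 96.4% of Cxcl2 and 68.3% of Cxcl10. It held 57.3% of Cxcl5, 33.9% of Ccl9 and 27.5% of Cxcl14. In population 1, Cxcl5 had 46 UMIs in the 272 Veh cells and 122 in the 406 Doxo cells. A Ccl2 UMI was found in 92.0% of the Veh cells of population 2 and in 18.0% of those of population 1. In the 6 Doxo cells of population 2, 83.3% had a Ccl2 UMI (35.9% to 99.6%).

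Without population 2, an alternative chosen after seeing the data, 2 members were at least 2-fold lower in place of 6. The log2 ratio was then -1.21 for Ccl2, -1.38 for Cxcl1 and -0.36 for Cxcl2, and it turned to 0.73 for Ccl7 and 0.037 for Cxcl10. Ccl11 stood at -1.41 with under 10 UMIs left. For Ccl2 the value of -1.21 rests on population 3, where 4 of the 11 Veh cells held 358 UMIs, against 291 in the 272 Veh cells of population 1. In Doxo population 1, 1 cell held 54 of the 170 Ccl7 UMIs and 1 cell held 208 of the 561 Cxcl10 UMIs. The ratios of Ccl7 and Cxcl10 without these cells and population 2 were not computed. Within population 1, Ccl2 was at 184 CPM in Veh (164 to 207) and 154 in Doxo (140 to 169), in 18.0% and 11.1% of cells. Cxcl14 was at 3783 and 3999.6 CPM there. Whether population 2 was of like size with other settings of this clustering was not tested. Markers of leukocytes also differed between the libraries. In all CAR-like cells the 8 neutrophil markers summed to 1540 CPM in Veh, with none at 0, and to 80.8 CPM in Doxo, with Ly6g and Ltf at 0. The 8 markers of macrophages and monocytes summed to 96.8 and 37.8 CPM, with Adgre1 and C1qa at 0 in Veh. The macrophage and neutrophil lists share Ptprc. A Ptprc UMI was present in 1 CAR-like cell of each library, and without the cells with one the ratio of Ccl2 was -4.09. The part of free leukocyte RNA in the result was not tested beyond this.

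**Figure D4:**
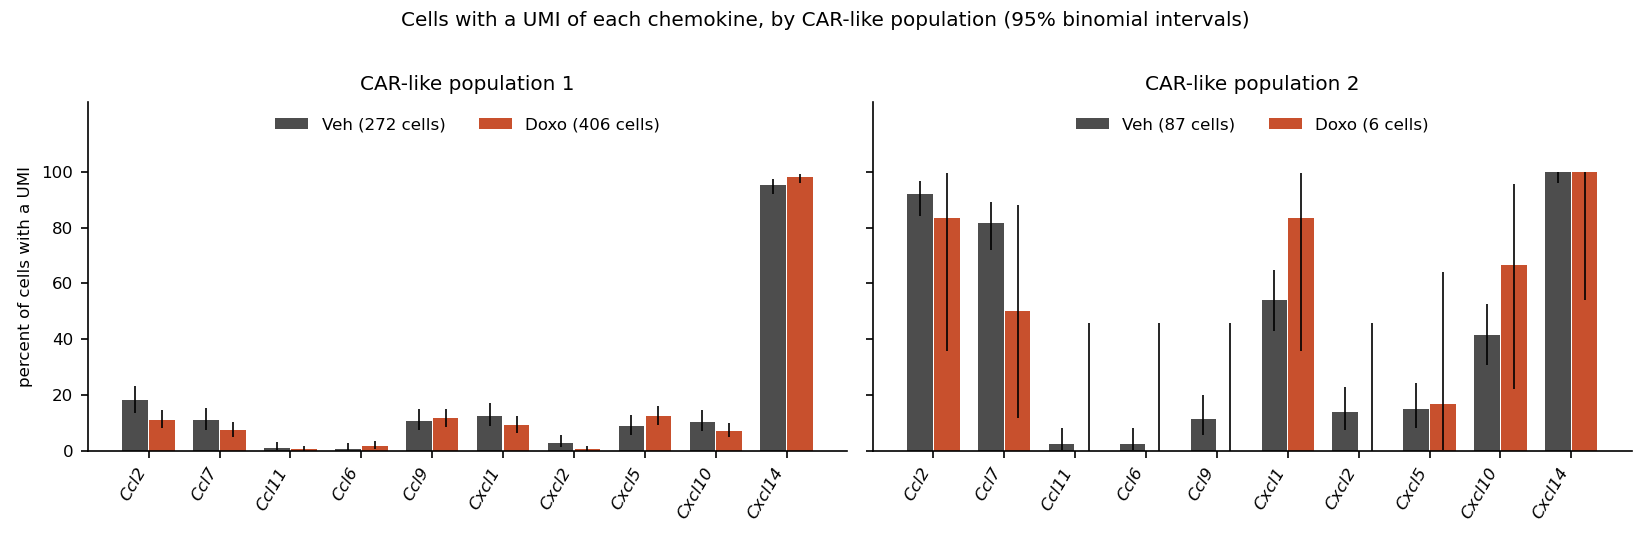
Percent of cells with a UMI of each chemokine in population 1 (left) and population 2 (right) of the CAR-like cells, Veh in grey and Doxo in orange, with 95% binomial intervals. Population 2 has 87 Veh cells and only 6 Doxo cells. Ccl2 was found in 92.0% of its Veh cells.

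In bone and cartilage fibroblast-like cells, 4 of 7 members with enough UMIs were at least 2-fold lower in Doxo and 0 were higher, where 5.64% and 2.06% of 14397 genes were. For Ccl2 there were 1917 UMIs against 228 (172 and 21.3 CPM), with a log2 ratio of -3.01 (-3.22 to -2.82), in 9.03% and 3.20% of cells. Ccl7 had 539 and 77 UMIs, a log2 ratio of -2.74. In Veh, 3 cells held 50% of the UMIs of Ccl2 and 2 cells those of Ccl7. Cxcl10 had 188 and 57 UMIs, a log2 ratio of -1.66, in 8.76% and 1.79% of cells, and the most any Veh cell held was 19 UMIs. With cells grouped by their most detected markers in place of clusters, this ratio was 0.16. Cxcl1, the most widely found inflammatory member of this class, had 3078 UMIs (277 CPM) and 1586 (148 CPM), a log2 ratio of -0.90 (-0.99 to -0.81), in 19.2% and 14.6% of cells. Cxcl14 had a log2 ratio of -0.20 and Cxcl2 of -0.36. For Ccl9, with 55 and 26 UMIs and a log2 ratio of -1.01, 1 Veh cell held 49 UMIs, and the ratio was 1.22 without the highest cell of each library. Ccl6 had 1 and 5 UMIs and Ccl11 had 2 and 0. Cxcl5 had no UMI here, in 1085 and 1343 cells, which allows a level of up to 0.270 and 0.281 CPM. Neutrophil markers summed to 1271 CPM in Veh and 93.3 in Doxo, with none of the 8 at 0. Their part in these ratios was not tested.

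In arteriolar and endosteal fibroblast-like cells, 6 of 8 members lay within 2-fold. Of the 8 members, 1 (Cxcl5, with 15 and 2 UMIs) was at least 2-fold lower and 1 (Cxcl10) at least 2-fold higher, beside 5.48% and 2.94% of 12586 genes. Cxcl1 stood at 728 CPM in Veh (702 to 754) and 727 in Doxo (691 to 764), a log2 ratio of -0.0020 (-0.09 to 0.09), in 32.0% and 33.6% of cells. Ccl2 had 1213 UMIs (282 CPM) and 788 (367 CPM), a log2 ratio of 0.38 (0.25 to 0.51), although its share was 15.1% in Veh and 10.7% in Doxo. Ccl7 had a log2 ratio of -0.98 (-1.18 to -0.78), in 13.9% and 13.7% of cells. For Cxcl10 the level was 18.6 CPM in Veh and 99.2 CPM in Doxo, a log2 ratio of 2.41, but its share of cells was 7.53% and 2.29%, and 2 Doxo cells held 104 and 94 of the 213 UMIs. Without the highest cell of each library its ratio was 1.83 and that of Ccl2 was 0.68. Cxcl2 had 306 and 112 UMIs, a log2 ratio of -0.44, which was -1.27 without the highest cells. The ratio of Cxcl5, -1.63, turned to 2.30 with cells thinned to 2000 UMIs. Cxcl14 had a log2 ratio of -0.44. Ccl9 had 5 and 1 UMIs, and Ccl6 had none, which allows up to 0.697 and 1.40 CPM. Neutrophil markers summed to 43.4 and 61.0 CPM in these cells.

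Ccl11 was nearly confined to the arteriolar and endosteal fibroblast-like cells, which held 96.0% of its 325 Veh UMIs and 98.4% of its 129 Doxo UMIs. Its level there was 72.5 CPM in Veh (64.6 to 81.0) and 59.2 CPM in Doxo (49.3 to 70.4), a log2 ratio of -0.29 (-0.60 to 0.01), and 9.13% and 8.02% of cells had a UMI. The next class, CAR-like cells, had 3.97 and 0.590 CPM. In Veh, Ccl2 and Ccl7, which lie beside it on chromosome 11, were highest in CAR-like cells instead, while in Doxo all 3 were highest in these fibroblast-like cells. The most Ccl11 UMIs in any cell were 39 in Veh and 20 in Doxo.

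The smaller classes held few UMIs of most members. In endothelial-like cells, 3 of 5 members were at least 2-fold lower and 1 at least 2-fold higher in Doxo, beside 5.17% and 7.12% of 8678 genes. Cxcl1 counted 228 UMIs against 17, in 35.3% (26.1% to 45.4%) and 10.1% (4.18% to 19.8%) of cells, a log2 ratio of -2.75. Cxcl2 had 102 and 10 UMIs, in 18.6% and 1.45% of cells. Ccl2 had 418 UMIs, of which 1 cell held 270, and 3 UMIs in Doxo, a log2 ratio of -5.95 (-8.45 to -4.61), which was -4.94 without the highest cell of each library. Cxcl14 had 8 and 32 UMIs, of which 1 Doxo cell held 23, and its log2 ratio of 2.89 turned to -0.95 with cells thinned to 2000 UMIs. Cxcl10 had 31 and 9 UMIs, a log2 ratio of -0.78 (-2.09 to 0.28). Ccl7 had 8 and 0, Ccl6 had 1 and 0, and Ccl11, Ccl9 and Cxcl5 had none, which allows up to 4.42 and 8.57 CPM. In chondrocyte-like cells, the deepest class by UMIs a cell, 5 of 6 members were at least 2-fold lower and 0 higher, beside 6.95% and 6.39% of 12250 genes. Of these 5, Cxcl14 had 624 and 180 UMIs, a log2 ratio of -1.17 (-1.42 to -0.93), and Ccl2 (24 and 4 UMIs), Cxcl2 (12 and 1), Cxcl5 (25 and 2) and Cxcl10 (29 and 1) had few. In Veh, 1 cell held 20 of the 25 Cxcl5 UMIs, 1 held 14 of the 29 Cxcl10 UMIs and 1 held 130 of the 624 Cxcl14 UMIs. Fewer members were 2-fold lower in this class without the highest cells or with cells thinned to 2000 UMIs. Cxcl1 had 219 and 162 UMIs there, a log2 ratio of 0.19. Ccl7 had 5 and 2 UMIs, Ccl9 had 2 and 3, Ccl6 had 1 and 0, and Ccl11 had none, which allows up to 0.637 and 0.982 CPM.

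In osteoblast-like cells, 2 of 3 members were at least 2-fold lower and 0 higher, beside 8.52% and 5.88% of 8520 genes. Cxcl14 had 170 and 45 UMIs, of which 1 Veh cell held 87 (a log2 ratio of -1.12, and -0.89 without the highest cells, but 0.25 with cells grouped by markers), and Cxcl1 had 24 and 2. Cxcl10 had 8 and 2 UMIs, Ccl7 had 8 and 1, Ccl2 had 6 and 2, Cxcl2 had 3 and 0, Ccl11 had 1 and 0 and Ccl6 had 0 and 1. Ccl9 and Cxcl5 had none, which allows up to 3.27 and 5.63 CPM. In the cells led by Clic5 and Rab37, 2 of 7 members were at least 2-fold lower and 3 at least 2-fold higher, beside 4.86% and 6.59% of 8629 genes. Cxcl1 was the chief member there, with 355 UMIs in Veh (590 CPM) and 296 in Doxo (474 CPM), a log2 ratio of -0.32, in 25.6% and 27.3% of cells. Ccl2 had 7 and 120 UMIs, of which 2 Doxo cells held 80 and 39, and the log2 ratio was 3.95, or 2.79 without the highest cells. All 11 Doxo UMIs of Ccl7 were in 1 cell, beside 5 in Veh, and its ratio of 1.01 was -2.82 without the highest cells. Ccl9 had none in Veh and 10 in Doxo, at least 3.21-fold higher against a floor of 3 UMIs in the library. Cxcl2 had 60 and 58 UMIs, a log2 ratio of -0.10 (-0.65 to 0.44), but 1 Doxo cell held 52, and the ratio was -2.05 without the highest cells. Cxcl10 had 20 and 1 UMIs, Cxcl14 had 16 and 2 and Ccl6 had 0 and 1, while Ccl11 and Cxcl5 had none, which allows up to 4.99 and 4.80 CPM.

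Other genes of the chemokine system were counted in the same way from fixed lists. In CAR-like cells these counts stand beside 4.55% of all genes lower and 5.23% higher. Of 13 other chemokine ligands with enough UMIs in CAR-like cells, 2 were at least 2-fold lower and 3 higher. Their median log2 ratio was 0.17, against 0.06 over all genes. Cxcl9, which like Cxcl10 is induced by interferon and binds Cxcr3, counted 404 Veh UMIs (160.2 CPM) against 1254 (370.0 CPM), with a log2 ratio of 1.21 (1.04 to 1.37), in 12.2% and 31.2% of cells. Over all CAR-like cells it thus differed from Cxcl10 in direction. Within population 1, Cxcl9 was at 197 CPM in Veh and 413 in Doxo. The summed level of Cxcl10 there was 137 (119.7 to 157) and 187 CPM (172 to 203). For Cxcl10, however, 1 Doxo cell held 208 of the 561 UMIs of population 1, and the higher Doxo sum rests on that cell. Cxcl12, which keeps blood stem cells in the marrow and names the CAR cells, was at 21739 CPM in Veh and 24377 in Doxo. Pf4, a platelet chemokine, had 47 and 24 UMIs. Of 5 chemokine receptors, 1 was lower and 1 higher. Ackr4, a scavenging receptor, stood at 420.3 CPM in Veh and 235 CPM in Doxo CAR-like cells (1060 and 797 UMIs). In bone and cartilage fibroblast-like cells it had 227 and 45 UMIs, a log2 ratio of -2.26. Of 14 other ligands in these fibroblast-like cells, 5 were at least 2-fold lower and 0 higher, beside 5.64% and 2.06% of all genes, among them Ccl3 (76 and 6 UMIs), Ccl4 (101 and 16 UMIs) and Pf4 (106 and 37 UMIs), all of which leukocytes or platelets make. Of 4 receptors in arteriolar and endosteal fibroblast-like cells, 1 was lower and 2 were higher, beside 5.48% and 2.94% of all genes. Ackr4 had 260 and 53 UMIs there, a log2 ratio of -1.28, while the decoy receptors Ackr1 and Ackr2 had log2 ratios of 1.14 and 1.10.

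Lists of pathways that act on chemokine genes were read beside the members. Of 14 NF-κB feedback genes in CAR-like cells, 2 were at least 2-fold lower in Doxo and 0 higher, with a median log2 ratio of -0.45. Over all genes of these cells, 4.55% were lower and 5.23% higher and the median was 0.06, which also stands beside the other lists of CAR-like cells. These were Tnfaip3, a brake on NF-κB, at -1.31 (-1.76 to -0.88), and Nfkb1, a subunit, at -1.22 (-1.41 to -1.03). Among 9 other cytokines 3 were lower and 1 higher: Il6 had 214 and 33 UMIs, and Lif 66 and 5. Of 13 interferon-response genes 0 were lower and 7 higher, with a median of 1.08. Ifit1 counted 52 Veh UMIs against 345, a log2 ratio of 2.29, and Isg15 had 278 and 792, a log2 ratio of 1.08. Il6 was among the leading genes of CAR-like population 2, which had 87 Veh cells and 6 Doxo cells. Oasl2 of the interferon list was among those of population 1. The part of this difference in cell makeup in the lists of CAR-like cells was not tested. In arteriolar and endosteal fibroblast-like cells, 2 of 8 other cytokines were lower and 3 higher, beside 5.48% and 2.94% of all genes. Il6 had 142 and 165 UMIs there, a log2 ratio of 1.22. Among the 6 members with a promoter window, those with κB letters had log2 ratios over all CAR-like cells of -0.05 (Ccl9), -3.35 (Cxcl1), -4.59 (Cxcl2) and -1.08 (Cxcl10). Of these, Cxcl10 also held response element letters. Without population 2 the ratios of Cxcl1, Cxcl2 and Cxcl10 were all smaller in size. Cxcl14, with response element letters and no κB match, stood at 0.13. Ccl6, with neither, stood at 3.02, with 86 of its 92 Doxo UMIs in 1 cell. A link between these letters and the ratios was not tested.

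Genes induced by tissue dissociation did not move one way in all classes. Of 21 such genes, 6 were at least 2-fold lower in Doxo CAR-like cells and 0 higher, with a median log2 ratio of -0.60, led by Myc at -2.37 and Atf3 at -1.60, beside 4.55% and 5.23% of all genes. In osteoblast-like cells 4 were lower and 0 higher, with a median of -0.52 (over all genes 8.52%, 5.88% and -0.03). In bone and cartilage fibroblast-like cells 0 were lower and 2 higher (Fos at 1.03 and Zfp36 at 1.03). The median of the list was 0.40 there (over all genes 5.64%, 2.06% and -0.09). In chondrocyte-like cells 1 was lower and 12 higher, where 6.95% and 6.39% of all genes were. Myc was also among the leading genes of CAR-like population 2. Neither the part of that population in these counts nor the part of dissociation in the chemokine levels was tested.

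The genes whose level was most like that of a member were found over the 14 groups of 7 classes and 2 libraries, by Pearson's r of log2(CPM + 10). For Ccl11 they were Cyp2f2, Gpc3 and Hmcn2, with an r of 0.99 for the first. For Cxcl5 they were P2ry14, Colca2 and Dipk1c (0.98), and for Cxcl14 Mme, Fhl2 and Sirt4 (0.95). For Ccl6 they were Plin1, Ffar2 and Slc22a3 (0.99), where the level of Ccl6 rests on 1 cell. For Ccl9 they were Nr1h3, Cbln1 and Wwc1 (0.93). For Ccl2 they were Cstf1, Parp2 and Dnajc2 (0.90), and for Ccl7 Lyz2, C1s1 and Angptl1 (0.92). For Cxcl1 they were Sfr1, Rbpj and Snx9 (0.95), for Cxcl2 Slain2, Ppp4r2 and Kif5b (0.94), and for Cxcl10 Fmo2, 2410004B18Rik and Mta3 (0.95). The groups share libraries and were picked from many genes, so these values are a description.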

How the data were processed

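Droplet 3′ libraries of 1 Veh and 1 Doxo sample were aligned by the authors to GRCm38 (mm10) with Cell Ranger, and the submitters' processing notes also name Partek. Versions are not given in the sources used here. What the authors deposited is on a log2 scale, and the numbers themselves show that every cell had been brought to a sum of 1000000 in 2 rounds. Undoing both rounds and the logarithm returned whole UMIs for 99.9% of nonzero values up to 50 UMIs and for every value of the 10 members, and for 27 symbols did not. In 60 simulated cells with 6000 genes the inversion returned 100% of the UMIs.

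Cells with 200 to 10000 genes and at most 10% mitochondrial UMIs were clustered in Seurat 5.3.0 (R 4.3.3) with 35 principal components of 2000 variable genes, chemokines left out, at resolution 0.1. Endothelial clusters were set apart first. To be named, a class needed 3 or more markers that 10% or more of its cells held and that stood 1 or more log2 units over the remaining cells. CAR-like cells were clustered again at resolution 0.15. No doublet caller was run and doublets were kept.

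UMIs were summed by class, with exact Poisson, binomial and conditional binomial 95% intervals, and 0.5 UMI was added to each sum for a ratio. On simulated data with 12830 genes, 96.0% of intervals held the true ratio. Members and lists were chosen with earlier results of these data known. The marker list behind the cells led by Clic5 and Rab37 was written with an earlier name of them known. All members are named in each class. List genes named had at least 50 UMIs and a 2-fold ratio, at most 6 a list and class. Not all list genes that met this are named in the text. Cxcl12 and Ackr4 in CAR-like cells are exceptions, named after their values were seen. For each member, 3 genes are named as most like it. Alternatives varied the grouping, clustering, cell filter, weighting, thinning, added UMIs, centring, fold and minimum. Python 3.11.15, numpy 2.4.6, scipy 1.17.1, pandas 2.3.3 and matplotlib 3.10.9 were used.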

Additional observations from a re-analysis of the deposited data

Results flagged for a closer look

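For 4 members the log2 ratio of Doxo to Veh was at least 2-fold in opposite directions in 2 classes, with both counting intervals clear of 0. Smaller ratios of opposite sign, such as those of Ccl7 and Cxcl1, are not listed. These differences were not tested, since each condition has 1 library, and most of them rest on few cells. For Ccl2, the ratio was 3.95 in Clic5 Rab37 cells and -5.95 in endothelial-like cells, a difference of 9.90, with 2 Doxo cells holding 119 of the 120 UMIs in the former and 1 Veh cell holding 270 of 418 in the latter. For Ccl9, Clic5 Rab37 cells had 0 and 10 UMIs, the 10 in 2 cells. The fitted ratio of 4.34 depends there on the 0.5 UMI added, and so does its difference of 5.35 from the -1.01 in bone and cartilage fibroblast-like cells. Against a floor of 3 Veh UMIs the log2 ratio was 1.68, which leaves out the counting error of the 10. With cells thinned to 2000 UMIs the fitted ratio was -0.33. For Cxcl10, it was 2.41 in arteriolar and endosteal fibroblast-like cells and -3.83 in Clic5 Rab37 cells, from 20 and 1 UMIs, a difference of 6.24. For Cxcl14, it was 2.89 in endothelial-like cells, from 8 and 32 UMIs, and -2.78 in Clic5 Rab37 cells, from 16 and 2 UMIs, a difference of 5.67.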

How the results depend on the processing

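Each condition had 1 library, and leaving one out was not possible. No paired analysis was possible because each condition has 1 library. Of 495 log2 ratios of members under the alternatives, 392 moved by less than their counting interval, 82 moved by more and 21 changed sign, and the cause was not tested. Counts below are members at least 2-fold lower or higher in Doxo. The alternatives chosen after seeing the data were leaving out CAR-like population 2, cells with a Ptprc UMI, or the cell with most UMIs of the gene in each library.

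With cells grouped by their most detected markers, bone and cartilage fibroblast-like cells had 1 higher, with Ccl9 at 1.71 and Cxcl10 at 0.16. Arteriolar and endosteal fibroblast-like cells had 2 lower, with Cxcl5 at 1.82. Osteoblast-like cells had 1 higher, with Cxcl1 at 0.58 and Cxcl14 at 0.25, and chondrocyte-like cells had 3 lower, with Cxcl2 at 0.88. With chemokine genes kept in clustering, osteoblast-like cells had 1 lower and 1 higher, with Cxcl14 at 1.08. At resolution 0.2, bone and cartilage fibroblast-like cells had 2 lower and 1 higher, with Ccl9 at 2.41. With 20 principal components they had 2 lower, arteriolar and endosteal fibroblast-like cells had 2 lower and 2 higher, and osteoblast-like cells had 1 lower, with Cxcl1 at 0.23. With cells of 1000 genes or more and 5% mitochondrial UMIs or less, arteriolar and endosteal fibroblast-like cells had 2 higher, with Cxcl5 at 2.38, and osteoblast-like cells had 1 lower. Clic5 Rab37 cells were not set apart under marker grouping, 20 components or this cell filter, so no value was had.

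With every cell weighing the same, arteriolar and endosteal fibroblast-like cells had 0 lower, Cxcl14 stood at 0.93 in osteoblast-like cells and Ccl7 at -0.69 in Clic5 Rab37 cells. With each cell thinned to 2000 UMIs, Cxcl5 stood at 2.30 in arteriolar and endosteal fibroblast-like cells, osteoblast-like cells had 0 lower, and chondrocyte-like cells had 1 lower, with Cxcl5 at 0.22. Endothelial-like cells had 0 higher, with Cxcl14 at -0.95, and Clic5 Rab37 cells had 0 lower and 1 higher, with Ccl7 at -1.91 and Ccl9 at -0.33. At a ratio of at least 1.5, arteriolar and endosteal fibroblast-like cells had 2 lower. Of other chemokine system genes, 6 were then lower and 8 higher in CAR-like cells, in bone and cartilage fibroblast-like cells 2 were higher, and there were 7 lower and 1 higher in chondrocyte-like cells, and 2 lower in endothelial-like cells. With at least 50 UMIs, the counts were 0 lower in arteriolar and endosteal fibroblast-like cells, 1 lower in osteoblast-like cells, 1 lower in chondrocyte-like cells, 0 higher in endothelial-like cells, and 0 lower and 1 higher in Clic5 Rab37 cells. With at least 1 UMI they were 1 higher for bone and cartilage fibroblast-like cells, 4 lower and 1 higher in osteoblast-like cells, and 1 higher in chondrocyte-like cells.

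Without population 2, CAR-like cells had 2 lower, with Ccl7 at 0.73 and Cxcl10 at 0.037, each resting in part on 1 Doxo cell. Without the highest cell of each library, CAR-like cells had 0 higher, bone and cartilage fibroblast-like cells had 1 higher, with Ccl9 at 1.22, arteriolar and endosteal fibroblast-like cells had 2 lower, osteoblast-like cells had 1 lower, chondrocyte-like cells had 2 lower, and Clic5 Rab37 cells had 1 lower and 1 higher, with Ccl7 at -2.82.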
